A study of Homo sapiens with 12 samples.

Results

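NEAT1 and MALAT1, a pair of abundant nuclear long non-coding RNAs, were followed together with 5 genes for proteins of the paraspeckle, NONO, SFPQ, PSPC1, RBM14 and TARDBP. These 7 genes were matched by symbol among the 60623 genes of the count table, and all 7 passed the filter on low counts. The set was chosen from measured values of these same libraries, in which NEAT1 was higher than in control, so NEAT1 is given below as a description with no test. The other 6 genes are given with p-values adjusted over all 17096 genes tested, to be read as a description too, because the set was drawn up with results known.

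Paraspeckles are nuclear bodies built on the long form of NEAT1. Proteins of the DBHS family (NONO, SFPQ and PSPC1) coat that RNA, and further RNA-binding proteins with disordered domains, such as RBM14, complete the body. MALAT1 is transcribed from the neighbouring locus and gathers in nuclear speckles, which hold splicing factors. NEAT1 is known to accumulate under cell stress, and both RNAs have been studied widely in tumours.

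RNA was sequenced from NUGC-4, an established human line of diffuse gastric cancer that the labels call wild type, after 24 h in 1 of 4 conditions with 3 libraries each. The control group received neither agent. The IN10018 group received 1 µM of this inhibitor of focal adhesion kinase (FAK). The crizotinib group received 1 µM of this inhibitor of MET, ALK and ROS1, spelled Criozotinib in the labels. The last group, called the combination here, received both agents at 1 µM each. Whether libraries of one group were grown separately is not in the labels, and the p-values therefore speak for the spread among these 12 libraries alone. A description field speaks of adipogenic differentiation for every sample, which no other label mentions.

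The libraries held 13691844 to 20489708 reads assigned to genes. Of 8 epithelial markers, KRT8 and KRT18 were the most abundant in control (mean 1389 and 616 CPM, the count relative to the TMM-scaled library size), EPCAM stood at 18.6 CPM, and KRT19 was at 0 reads in all libraries. The summed epithelial list ranged from 2190 to 2324 CPM in control (lowest 2189.6) and from 2672 to 4048 CPM in the combination. The 6 fibroblast markers summed to 5664 to 6240.4 CPM in control and 5065 to 5989 CPM in the combination, nearly all of it the collagen gene COL3A1 (mean 6036 CPM in control), while COL1A1 (1.08 CPM), DCN (1.85) and LUM (0.917) were low. KRT19 at 0 and COL3A1 at this level stand beside the label of a gastric cancer line, and the identity of the cells was not tested further. Among 8 adipocyte markers, ADIPOQ and LPL were at 0 reads, and the sum was 108 to 119 CPM in control and 128 to 151 CPM in the combination. The 4 endothelial markers, with KDR at 0 reads, summed to 18.1 to 21.9 CPM in control and 33.8 to 41.2 CPM in the combination, and the 6 leukocyte markers, with CD3E at 0, to 19.019 to 23.6 and 28.4 to 33.8 CPM. The part of these lists in the results was not tested. Mitochondrially encoded genes took 10.997 to 11.9% of reads in control, 11.5 to 12.7% with IN10018, 5.21 to 13.3% with crizotinib and 4.28 to 6.99% in the combination. Crizotinib library 2 stood apart from its group, at 47.3 on the first principal component of the 5000 most variable genes, where the other 2 were at -2.48 and 8.54. Without it, the genes called in crizotinib against control went from 3421 higher and 3014 lower to 1770 and 1877, and those with IN10018 from 59 and 27 to 169 and 54. With group means subtracted, Pearson's r of log2 CPM with the mitochondrial share was -0.73 for TARDBP, 0.619 for SFPQ and 0.504 for NONO. It was 0.12 for RBM14, 0.0367 for MALAT1, -0.0926 for PSPC1 and -0.102 for NEAT1. Computed alike, r with the first principal component was -0.847 for NONO, -0.672 for SFPQ, 0.518 for NEAT1 and 0.466 for TARDBP. For MALAT1, PSPC1 and RBM14 it was 0.334, 0.151 and 0.0797. The part of the mitochondrial share in the results was not tested.

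NEAT1 (ENSG00000245532) lies on the plus strand of chromosome 11 at 65422774 to 65445540 in GRCh38 by GENCODE 29. Its long transcript, NEAT1-202, starts at 65422798 and ends at 65445540, and its short transcript, NEAT1-201, runs from 65422774 to 65426457. Both share their 5′ part, and reads counted per gene cannot tell them apart. MALAT1 (ENSG00000251562) follows on the same strand at 65497688 to 65506516. NONO (ENSG00000147140) lies at 71283192 to 71301168 on chromosome X, SFPQ (ENSG00000116560) at 35176378 to 35193148 and TARDBP (ENSG00000120948) at 11012344 to 11026420 on chromosome 1. PSPC1 (ENSG00000121390) is at 19674752 to 19783019 on chromosome 13, and RBM14 (ENSG00000239306) at 66616582 to 66627347 on chromosome 11.

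Promoter windows of 300 bases around the annotated start were read from RefSeq (GRCh38.p14) for the 5 matched genes MALAT1, NONO, PSPC1, RBM14 and TARDBP. The windows of MALAT1 and NONO are shown because these genes moved in opposite directions in the combination. Each is printed 5′ to 3′ on the gene's strand, with motif matches in capitals.
MALAT1, upstream start, chr11:65497488-65497787: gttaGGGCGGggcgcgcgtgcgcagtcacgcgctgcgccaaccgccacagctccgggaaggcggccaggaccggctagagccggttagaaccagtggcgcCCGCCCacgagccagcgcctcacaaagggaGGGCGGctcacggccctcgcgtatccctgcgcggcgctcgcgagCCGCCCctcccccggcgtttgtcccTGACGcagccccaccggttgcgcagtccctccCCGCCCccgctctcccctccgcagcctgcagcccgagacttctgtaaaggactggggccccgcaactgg
MALAT1, downstream start, chr11:65498795-65499094: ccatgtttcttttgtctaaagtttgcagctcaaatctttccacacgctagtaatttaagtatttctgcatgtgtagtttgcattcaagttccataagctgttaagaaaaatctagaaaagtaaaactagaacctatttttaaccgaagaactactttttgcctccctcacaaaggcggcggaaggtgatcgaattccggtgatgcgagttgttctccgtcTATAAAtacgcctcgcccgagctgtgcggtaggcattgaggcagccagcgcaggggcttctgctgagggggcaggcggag
NONO, chrX:71283385-71283684: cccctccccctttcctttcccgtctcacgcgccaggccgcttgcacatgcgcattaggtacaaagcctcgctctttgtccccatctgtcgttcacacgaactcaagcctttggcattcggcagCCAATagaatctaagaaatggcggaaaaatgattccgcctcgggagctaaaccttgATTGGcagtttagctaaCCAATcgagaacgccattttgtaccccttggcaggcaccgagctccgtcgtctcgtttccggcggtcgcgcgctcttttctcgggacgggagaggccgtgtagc
For 10 motifs, matches were searched on both strands. The upstream MALAT1 window was 73.7% G and C and held 5 matches to the GC box GGGCGG and 1 to the CRE core TGACG. The downstream MALAT1 window was 46% G and C and held TATAAA from position -30 to -25 of its start. The NONO window held 3 matches to CCAAT, which NF-Y binds, and the window of RBM14 also held 3 together with 1 match to GGAATG. The TARDBP window held 1 ACGTG and 1 GGGCGG, and the PSPC1 window held none of the motifs. Over all 35116 windows of this length, 45% held GGGCGG, 24.6% TGACG, 11.5% TATAAA, 34.6% CCAAT, 14% GGAATG and 21.4% ACGTG. The other 4 motifs, TGANTCA (in 7.71% of windows), CACGTG (7.26%), CCGGAAG (10.3%) and GTAAACA (3.42%), had no match in these windows. CACGTG holds ACGTG within it. A match describes the letters and is not evidence of binding.

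NEAT1, the scaffold of the paraspeckle, was highest in the combination and lowest in control. Its level was 657, 897 and 600.5 CPM in the 3 control libraries. Under IN10018 it stood at 1881, 1986 and 1519 CPM. Under crizotinib it stood at 3236, 3261 and 2702 CPM. In the combination it was 4876, 5033 and 3625 CPM. No library of any group overlapped with a neighbouring group in the order control, IN10018, crizotinib, combination. The means were 718 ± 158, 1795 ± 245, 3067 ± 316 and 4511 ± 772 CPM (SD, n = 3), that is 2.50, 4.27 and 6.28 times control in the treated groups. Per kilobase of its exon union (RPKM), NEAT1 stood at 31.6 ± 6.93 in control and 198 ± 33.9 in the combination.

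The log2 fold change of NEAT1 against control was 1.32 ± 0.17 (SE) with IN10018, 2.09 ± 0.17 with crizotinib and 2.65 ± 0.18 in the combination. These 3 comparisons share the control libraries. The combination lay 1.33 ± 0.17 above IN10018 and 0.56 ± 0.17 above crizotinib on the log2 scale. The sum of the separate log2 changes was 3.42, against 2.65 measured with both agents, an interaction of -0.76 ± 0.24. Over the alternative settings and left-out libraries the combination's change ranged from 2.48 to 2.83. Without the libraries numbered 2 of crizotinib and the combination, the changes were 1.32 with IN10018, 2.05 with crizotinib and 2.57 in the combination.

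NEAT1 took 0.0552 to 0.0867% of reads in control, 0.148 to 0.196% with IN10018, 0.272 to 0.345% with crizotinib and 0.385 to 0.53% in the combination. Ranked by reads among all genes, it was at places 168, 108 and 194 in the control libraries and at 8, 6 and 9 in the combination. With IN10018 it was at 29, 25 and 38, and with crizotinib at 16, 14 and 19. In bulk RNA, more RNA per cell and more cells of a kind that makes it cannot be told apart.

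**Figure D1:**
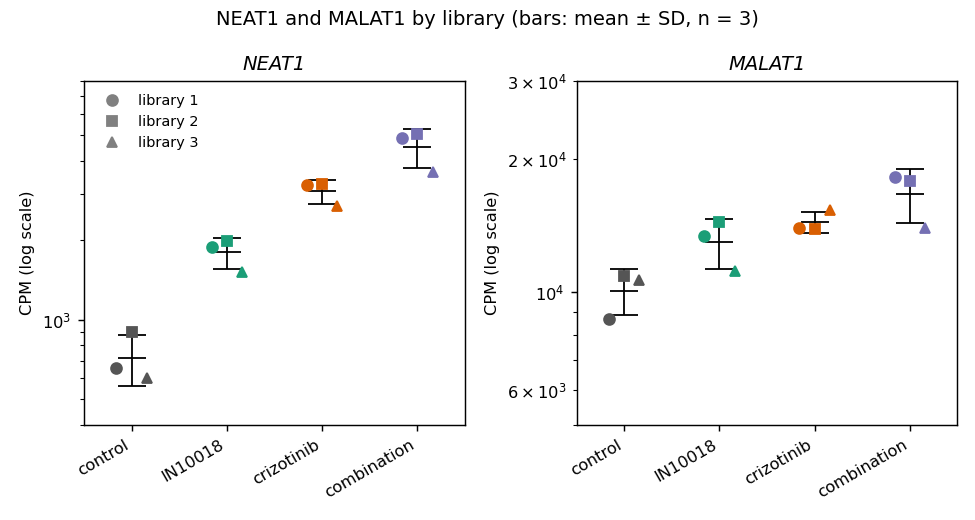
NEAT1 and MALAT1 in each library as CPM on a log axis, with colour and position for the group, symbol for the library and bars for the mean ± SD of 3 libraries. The NEAT1 groups do not overlap, from 600.5 to 897 CPM in control up to 3625 to 5033 CPM in the combination, and the MALAT1 groups overlap between neighbouring treatments.

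MALAT1, the speckle-associated RNA, moved in the same direction over a smaller range. It measured 8659.6, 10866 and 10658 CPM in control, and 13349, 14367 and 11120 CPM with IN10018. With crizotinib it measured 13914, 13897 and 15315 CPM, and in the combination 18144, 17769 and 13966 CPM. Every treated library lay above every control library, while IN10018 overlapped with crizotinib and crizotinib with the combination. Group means were 10061 ± 1218, 12945 ± 1661, 14375 ± 814 and 16626 ± 2312 CPM (SD, n = 3). Per kilobase of all annotated exon sequence MALAT1 was above NEAT1, at 1140 against 31.6 RPKM in control and 1883 against 198 RPKM in the combination. That scale divides NEAT1 by the 22767 bases of its long form. With the 3684 bases of NEAT1-201 instead, NEAT1 would stand at 195 in control and 1225 in the combination, so the size of the gap depends on a length the counts cannot settle.

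MALAT1 rose with crizotinib by 0.51 ± 0.14 on the log2 scale (SE; edgeR adjusted p = 0.012) and in the combination by 0.72 ± 0.14 (adjusted p = 0.00054). Without control library 1 the crizotinib change was 0.43 (adjusted p = 0.058). With IN10018 its change was 0.36 ± 0.14 (adjusted p = 0.32), which did not pass. It was higher in the combination than with IN10018 by 0.36 ± 0.14 (adjusted p = 0.035). That call was lost without control library 3 (0.33), IN10018 library 1 (0.38) or 3 (0.23), crizotinib library 3 (0.33), or combination library 1 (0.29) or 2 (0.27), where the adjusted p ran from 0.059 to 0.2. It was also lost with scaling that left out NEAT1 and MALAT1 (0.32, adjusted p = 0.056) and in a fit of the compared libraries alone (0.32, 0.062). For each read of NEAT1 there were 13.2, 12.1 and 17.7 reads of MALAT1 in the control libraries and 7.10, 7.24 and 7.32 under IN10018. The ratio was 4.30, 4.26 and 5.67 under crizotinib and 3.72, 3.53 and 3.85 under both agents. It was lower in every treated library than in any control library. The small RNA cut from the 3′ end of MALAT1, mascRNA, has its own row and was at 0 reads in all 12 libraries. Counting error alone would allow up to 0.0152 CPM over the pooled reads (3 counts). The non-coding RNAs RN7SK, RPPH1 and RMRP were at 0 reads as well. Whether such RNAs were captured and counted was not tested, so the 0 sets no limit on mascRNA in the cells.

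NONO, the DBHS protein that dimerises with SFPQ and PSPC1, was lowest in the combination. It measured 651, 634 and 642 CPM in control, and 603, 580.02 and 601 CPM with IN10018. With crizotinib it measured 567, 520.2 and 573 CPM, and in the combination 466, 438 and 541 CPM. Each treated group lay below control, and the combination overlapped with crizotinib. NONO fell by 0.41 ± 0.10 on the log2 scale in the combination (SE; edgeR adjusted p = 0.0021), with group means of 642 ± 8.72 and 482 ± 53.4 CPM (SD, n = 3). With crizotinib its change was -0.21 (adjusted p = 0.09; 0.021 by DESeq2), and with IN10018 it was -0.11 ± 0.10 (adjusted p = 0.73). Against IN10018 the combination was lower by a log2 change of -0.30 ± 0.10 (adjusted p = 0.015), a call lost without IN10018 library 1 (-0.30, adjusted p = 0.05) or combination library 1 (-0.28, adjusted p = 0.059).

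SFPQ, the splicing factor that NONO pairs with, was lower in both groups that received crizotinib. It measured 476, 486 and 458 CPM in control and 463, 472 and 446 CPM with IN10018, which overlap. It measured 397, 358 and 425 CPM with crizotinib and 389, 346 and 376 CPM in the combination, all below every control and IN10018 library. SFPQ fell by 0.35 ± 0.09 on the log2 scale in the combination (SE; edgeR adjusted p = 0.0045) and by 0.27 ± 0.09 with crizotinib (adjusted p = 0.036), and its change with IN10018 was -0.04 ± 0.09 (adjusted p = 0.9). The combination was also lower than IN10018, with a log2 change of -0.31 (adjusted p = 0.011). The crizotinib call was lost in 10 of 23 alternatives, among them those without control library 1 (-0.25, adjusted p = 0.12) or 2 (-0.25, 0.096), IN10018 library 1 (-0.27, 0.056), 2 (-0.27, 0.052) or 3 (-0.25, 0.067), or crizotinib library 2 (-0.21, 0.13). Scaling by library totals moved the median log2 change of all genes from 0.0953 to 0.273 in the combination and from 0.0843 to 0.208 with crizotinib. On that scale SFPQ changed by -0.18 in the combination (adjusted p = 0.11) and by -0.15 with crizotinib (0.21), and NONO by -0.24 in the combination (0.04). Against IN10018 neither call held on that scale, with the combination at -0.20 for SFPQ (adjusted p = 0.078) and -0.19 for NONO (0.096). Relative to those medians, both genes lay below the typical gene on either scale.

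PSPC1, the third DBHS protein, passed in none of the 6 comparisons. It measured 48.6, 39.5 and 49.6 CPM in control, 46.5, 44.3 and 43.0 CPM with IN10018, 46.0, 48.2 and 47.1 CPM with crizotinib and 46.4, 45.7 and 41.3 CPM in the combination. The combination differed from control by a log2 change of -0.05 (edgeR adjusted p = 0.72), and all 4 groups overlapped. Per kilobase, the DBHS genes stood in the order NONO, SFPQ, PSPC1 in control, at 121, 63.7 and 9.53 RPKM, and in the same order in the combination, at 91.0, 49.9 and 9.23 RPKM.

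RBM14, whose prion-like domain is known to be needed for paraspeckle assembly, measured 34.2, 39.7 and 33.5 CPM in control. It was at 40.0, 35.0 and 38.4 CPM with IN10018, at 40.8, 35.3 and 29.3 CPM with crizotinib and at 28.5, 33.6 and 32.3 CPM in the combination. The groups overlapped, apart from the combination, whose libraries all lay below those of IN10018. RBM14 passed in none of the 6 comparisons, with a log2 change of -0.19 in the combination against control (edgeR adjusted p = 0.22) and of -0.26 against IN10018 (adjusted p = 0.097). The latter was -0.31 (adjusted p = 0.028) without the libraries numbered 2 of crizotinib and the combination, and -0.28 (0.05) without crizotinib library 1, both passing before rounding.

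TARDBP, the gene of TDP-43, which regulates the processing of NEAT1 among many RNAs, measured 113, 114 and 119.85 CPM in control and 108, 106 and 112 CPM with IN10018. It was at 105, 138 and 137 CPM with crizotinib, with library 1 apart from the other 2, and at 133, 127 and 125 CPM in the combination. Every IN10018 library lay below control (log2 change -0.09, edgeR adjusted p = 0.8). The combination lay above control in every library, but the log2 change of 0.15 did not pass (edgeR adjusted p = 0.23). It was 0.33 (adjusted p = 0.019) with scaling by library totals. The crizotinib change was 0.13 (adjusted p = 0.33) with all libraries and 0.26 (0.027) without crizotinib library 1. Against IN10018 the combination's change was 0.24 (adjusted p = 0.069), and 0.22 (0.028) and 0.24 (0.045) without crizotinib library 1 or 2. It also passed with scaling by library totals (0.35, adjusted p = 0.015) and without the libraries numbered 2 of crizotinib and the combination (0.25, 0.019).

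**Figure D2:**
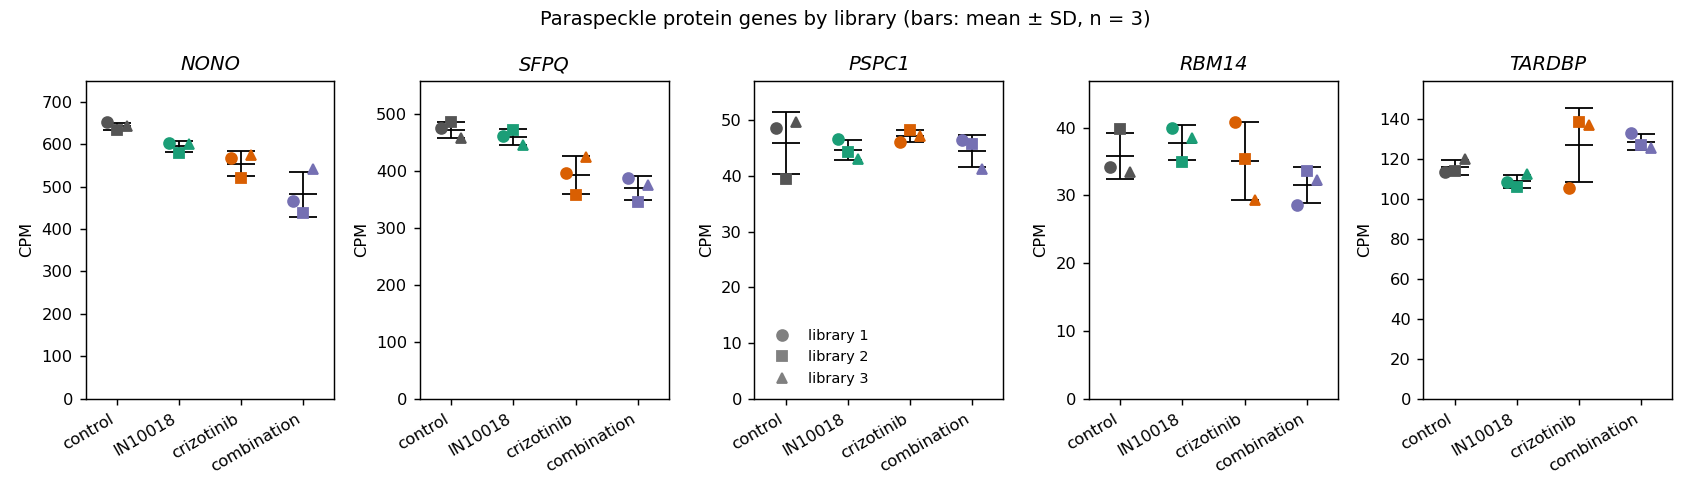
The 5 protein genes in each library as CPM on linear axes from 0, with colour for the group, symbol for the library and bars for the mean ± SD of 3 libraries. NONO descends from 634 to 651 CPM in control to 438 to 541 CPM in the combination, SFPQ is lower in both groups with crizotinib, and PSPC1 overlaps across all groups.

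Calls are counted over the 6 genes other than NEAT1. With IN10018 edgeR called 0 of the 6 at an adjusted p of 0.05, as did DESeq2 and limma-voom, and 1 (MALAT1) had an unadjusted p under 0.05, where 0.345% of all genes were called higher and 0.158% lower. With crizotinib 1 was called higher (MALAT1) and 1 lower (SFPQ), beside 20.0% and 17.6% of all genes. That count of 2 was 0 without control library 1, and 1 without control library 2, any IN10018 library or crizotinib library 2. In the combination 1 was called higher (MALAT1) and 2 lower (NONO and SFPQ), beside 33.7% and 29.1% of all genes, so such calls were common across the transcriptome. The median log2 change of the 7 genes there was -0.05, beside 0.10 for all genes.

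Against IN10018 the combination had the same 1 higher and 2 lower, beside 29.7% and 27.5% of all genes. This count of 3 was 1 without IN10018 library 1 or combination library 1, and 5 without crizotinib library 1. Between the combination and crizotinib, edgeR, DESeq2 and limma-voom called 0 of the 6, with 0 at an unadjusted p under 0.05. Over all genes edgeR called 0% higher and 0.0117% lower there, but that background moved with the libraries, the filter and the model used. Leaving out crizotinib library 2 gave 2614 genes higher and 3027 lower, and leaving out the libraries numbered 2 of both groups gave 1877 and 2475. Without the filter there were 772 and 972, and with the replicate number as a block 90 and 4. The cause was not tested. At an unadjusted p under 0.05 there were 3697 genes, DESeq2 gave 9 higher and 5 lower, and limma-voom gave 0 and 2. For the interaction, all 3 tools called 0 of the 6, with 0 at an unadjusted p under 0.05, beside 0.0585% of all genes higher and 0.0117% lower (10 and 2 genes, and 392 and 414 without crizotinib library 2). The interaction was -0.15 ± 0.19 for MALAT1, -0.09 ± 0.14 for NONO, -0.05 ± 0.13 for SFPQ, -0.24 ± 0.18 for RBM14 and 0.11 ± 0.15 for TARDBP (log2, SE).

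**Figure D3:**
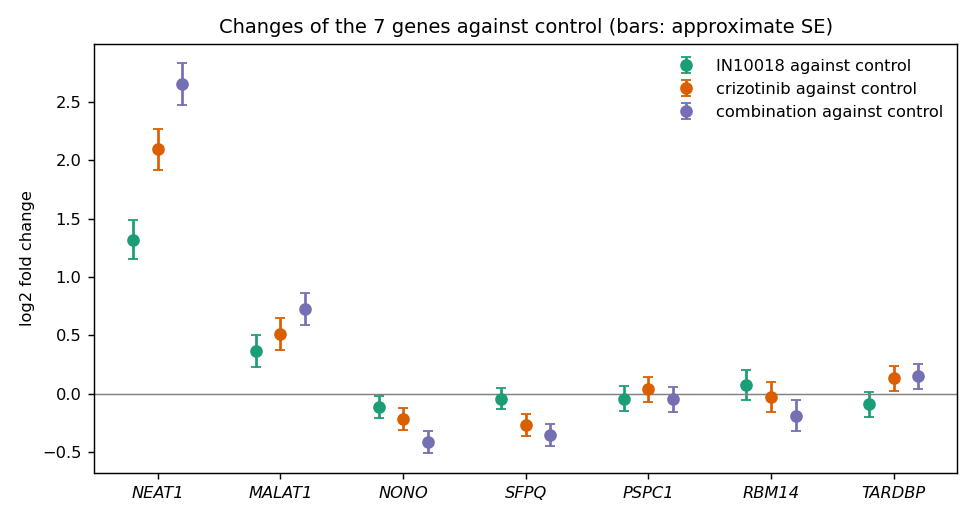
Log2 fold change against control of the 7 genes in the 3 treated groups, with approximate standard errors from the edgeR fit as bars. NEAT1 reaches 1.32, 2.09 and 2.65, while the 5 protein genes lie between -0.41 (NONO) and 0.15 (TARDBP).

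Few reads were assigned to related rows. The readthrough transcript RBM14-RBM4 had 7 to 17 reads per library, a NONO pseudogene (AC092115.1) had 8 to 14, a TARDBP pseudogene (AC011978.1) had 0 to 1 and the antisense PSPC1-AS2 had 4 to 18. Reads that the counting gave to none of these rows cannot be traced from the table.

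Of 36 listed genes for other proteins of the paraspeckle 32 were tested, and in the combination 9 rose, 11 fell and 12 did not pass (edgeR, adjusted p under 0.05 over all genes). These shares are near those of all genes, of which 33.7% rose and 29.1% fell, so the counts say nothing particular to the list. Their median log2 change was -0.06, beside 0.10 for all genes. The 9 became 4 without control library 3, 5 without combination library 2, and 14 with scaling by library totals. With crizotinib 3 rose and 6 fell, beside 20.0% and 17.6% of all genes, with 1 higher without control library 3, 8 higher without crizotinib library 1, 7 higher with library totals, and 3 lower without control library 1. With IN10018 edgeR, DESeq2 and limma-voom called 0, and 4 had an unadjusted p under 0.05. In a fit limited to control and IN10018 5 were higher and 5 lower, beside 1319 and 840 of all genes. Without the libraries numbered 2 of crizotinib and the combination 3 were higher, beside 627 of all genes.

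NUDT21 and CPSF6 form the cleavage factor that favours the short, polyadenylated NEAT1. NUDT21 measured 237, 225 and 233 CPM in control and 92.9, 67.1 and 111 CPM in the combination, with no overlap, and fell by 1.36 ± 0.19 on the log2 scale (SE; adjusted p = 0.00011). CPSF6, named for its role after its values were seen, went from 118, 117 and 122 CPM to 83.9, 72.2 and 89.6 CPM, a log2 change of -0.54 ± 0.10 (adjusted p = 0.00069). HNRNPK, which is known to oppose that cleavage factor at NEAT1 and was named in the same way, went from 632, 596 and 654 CPM to 417, 347 and 399 CPM (log2 change -0.69 ± 0.12, adjusted p = 0.00025). Levels of all 3 genes in every combination library lay below those of every control library. The share of all genes that did so is not given here, and 29.1% of all genes were called lower.

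CIRBP, the cold-inducible RNA-binding protein, rose from 75.2, 82.7 and 73.5 CPM in control to 193, 281 and 148 CPM (log2 change 1.43 ± 0.20, adjusted p = 9.7e-05). HNRNPR and RBM12 fell, with log2 changes of -0.72 ± 0.10 (adjusted p = 0.00011) and -0.85 ± 0.14 (0.00019). Of 3 further assembly genes named after their values were seen, DAZAP1 rose by 0.46 (0.0061; the call was lost without control library 3, at 0.38), HNRNPH3 was at -0.22 (0.056), and SMARCA4 rose by 0.51 (0.026). The SMARCA4 call was lost without control library 2 (0.46) or 3 (0.46) or combination library 2 (0.33).

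**Figure D4:**
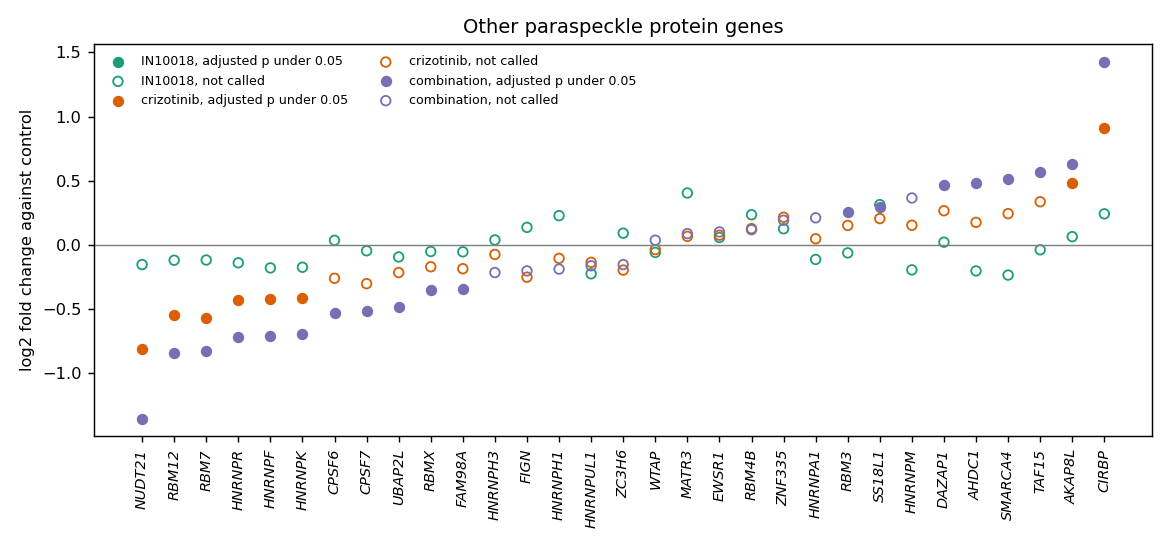
Log2 fold change against control of genes for other paraspeckle proteins, ordered by the change in the combination, with filled points for an adjusted p under 0.05 and open points for genes not called. The combination points run from NUDT21 at -1.36 to CIRBP at 1.43, and no IN10018 point is filled.

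RNase P cuts the 3′ ends of long NEAT1 and MALAT1. Of 14 listed genes for RNase P and end processing 13 were tested, and in the combination 4 rose and 5 fell, beside 33.7% and 29.1% of all genes, with a median log2 change of -0.22 beside 0.10 for all genes. RPP21 (1.59) and RPP25L (0.80) rose, and POP1 (-0.54), a large shared subunit of RNase P and RNase MRP, and RPP30 (-0.32) fell (adjusted p 0.00029, 0.002, 0.0023 and 0.0086). POP5 rose by 0.62 (adjusted p = 0.013), but did not pass when control library 1 (0.54) or combination library 2 (0.42) was left out. The 4 became 2 without combination library 2, and the 5 became 3 in 9 of the 12 fits with 1 library left out (control 1 or 3, any of IN10018, crizotinib 3, any of the combination), and 1 with scaling by library totals. With crizotinib 2 rose and 2 fell, beside 20.0% and 17.6% of all genes. The higher count was 0 without control library 3 and 1 without crizotinib library 2, and the lower count was 0 without control library 1 and 1 without control library 2 or 3, IN10018 library 3 or crizotinib library 2 or 3. The lower count was also 0 with library totals, without the filter and in a fit of the compared libraries alone. With IN10018 the 3 tools called 0, and 1 had an unadjusted p under 0.05. In a fit of the compared libraries alone 1 was higher and 1 lower, beside 1319 and 840 of all genes. The RNA subunits RPPH1 and RMRP were at 0 reads in all libraries, which, as for mascRNA, sets no limit on their level in the cells.

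The 26 genes for nuclear speckle proteins, all tested, had 8 higher and 7 lower in the combination, near the 33.7% and 29.1% of all genes, and a median log2 change of 0.03 beside 0.10 for all genes (4 lower with scaling by library totals). SNRNP70, the U1-70K splicing protein, rose from 197, 227 and 197 CPM in control to 457, 688 and 397 CPM (log2 change 1.31 ± 0.19, adjusted p = 0.00013). The splicing factor SRSF7 fell from 178, 190 and 179 CPM (189.54 in library 2) to 84.3, 67.8 and 80.3 CPM (-1.23 ± 0.14, adjusted p = 4.7e-05). SRSF1 (-0.93), BCLAF1 (-0.85) and PRPF4B (-0.85) fell as well (adjusted p 3e-04, 9.6e-05 and 0.00014). With crizotinib 5 rose and 5 fell, beside 20.0% and 17.6% of all genes. Leaving out control library 1 gave 1 higher and 2 lower, and leaving out control library 3 gave 0 higher. Leaving out crizotinib library 1 gave 9 higher, and library 2 gave 3. Library totals gave 8 higher, and a fit of the compared libraries alone gave 3. With IN10018 the tools called 0, and 4 had an unadjusted p under 0.05. A fit limited to control and IN10018 called 10 higher and 1 lower, beside 1319 and 840 of all genes.

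Among 11 factors reported to regulate NEAT1 transcription, 10 were tested, and in the combination 7 fell and 1 rose (HSF1, by 0.57), beside 29.1% of all genes lower and 33.7% higher, with a median log2 change of -0.54 beside 0.10 for all genes. HIF1A, the hypoxia-inducible factor, measured 1259, 1210.4 and 1259.6 CPM in control and 628, 436 and 799 CPM in the combination, with no overlap (log2 change -1.001 ± 0.19, adjusted p = 0.00059). EPAS1, its relative, went from 1191, 1111 and 1193 CPM (1190.8 and 1110.5 in libraries 1 and 2) to 651, 507 and 805 CPM (-0.83 ± 0.16, adjusted p = 0.00062). MYC (-0.98), ATF2 (-0.88) and BRCA1 (-0.53) fell too (adjusted p 0.00053, 0.00075 and 0.00031). With crizotinib 6 fell and 0 rose by edgeR, beside 17.6% and 20.0% of all genes. DESeq2 and limma-voom also had 0 higher, and 1 was higher at an unadjusted p under 0.05. Leaving out control library 1 or crizotinib library 2 left 1 lower, leaving out control library 3 left 2, as did library totals, and 1 rose without crizotinib library 1 or combination library 2 or 3. With IN10018 all 3 tools called 0, with 0 at an unadjusted p under 0.05. In a fit limited to control and IN10018 3 were lower, beside 840 of all genes.

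Of 25 listed names of other long non-coding RNAs, LINC00657 being an older name of NORAD, 20 were tested, and in the combination 5 rose and 7 fell, near the 33.7% and 29.1% of all genes, with a median log2 change of 0.20 beside 0.10 for all genes. The 5 were 10 with scaling by library totals and 8 without the libraries numbered 2 of crizotinib and the combination. KCNQ1OT1, the antisense RNA of an imprinted locus, measured 22.3, 17.8 and 22.5 CPM in control, 37.0, 38.8 and 32.7 CPM with IN10018, 37.3, 32.8 and 34.9 CPM with crizotinib and 43.7, 44.6 and 34.4 CPM in the combination. Its log2 changes were 0.79, 0.75 and 0.97, and the IN10018 call (adjusted p = 0.02) was lost without any control library or IN10018 library 1 or 2 (0.69 to 0.87). MIAT, at low levels, was at 0.279 ± 0.081 CPM in control and 1.35 ± 0.49 CPM in the combination (SD, n = 3; log2 change 2.19). It passed the filter on low counts only through treated libraries, where it was higher. Its call, counted among the 5, is therefore no support for a rise. NORAD, a cytoplasmic RNA that binds Pumilio proteins, fell from 940.3 ± 37.1 to 509 ± 129 CPM (-0.89, edgeR adjusted p = 0.00045), and SNHG1 (-0.66, 0.00046) and EBLN3P (-1.27, 0.00062) also fell.

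With IN10018, KCNQ1OT1 and JPX (0.71, adjusted p = 0.049) were the 2 of this list called higher, and 0 were called lower. Over all genes 0.345% were called higher and 0.158% lower. At an unadjusted p under 0.05 8 were higher and 0 lower, where 1886 of all 17096 genes tested passed in either direction. DESeq2 called 3 and 0 and limma-voom 1 and 0. The count was 0 without any control library or IN10018 library 1 or 2, and 1 without crizotinib library 3 or combination library 1 or 3. It was 6 in a fit limited to control and IN10018, beside 1319 of all genes. Without the libraries numbered 2 of crizotinib and the combination it was 5, beside 627 of all genes. With crizotinib 7 rose and 3 fell, beside 20.0% and 17.6% of all genes. By DESeq2 or with the compared libraries alone 4 rose, and with library totals 1 fell. The higher count was 3, 4 and 2 without control library 1, 2 or 3 and 4 without crizotinib library 2, and the lower count was 1 without any control library, IN10018 library 3 or crizotinib library 2 or 3.

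The genes around NEAT1 and MALAT1 on chromosome 11 were taken from a list of 19 neighbours, 17 of them tested. In the combination 11 rose and 0 fell by edgeR (12 and 0 at an unadjusted p under 0.05, 10 and 0 by DESeq2, 11 and 0 by limma-voom), beside 33.7% and 29.1% of all genes, with a median log2 change of 0.71 beside 0.10 for all genes. With crizotinib 6 rose and 0 fell (8 and 0 unadjusted, 6 and 0 by both other tools), beside 20.0% and 17.6% of all genes, and the median was 0.34 beside 0.08. With IN10018 all 3 tools called 0, with 0 at an unadjusted p under 0.05. Without the libraries numbered 2 of crizotinib and the combination, 1 neighbour was called lower in the combination.

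The nearest tested gene upstream, FRMD8, starts 36.2 kb before NEAT1 and was at 19.7 CPM in control and 20.3 CPM in the combination (log2 change 0.04, adjusted p = 0.79). SLC25A45, a mitochondrial carrier 47.6 kb upstream by its lower coordinate (-47.58), went from 3.24 to 7.95 CPM (1.30, adjusted p = 0.00013), and TIGD3 (-68.0 kb) from 0.932 to 2.92 CPM (1.58, 0.0017). DPF2 (-89.0 kb) was at -0.16 (0.26), and POLA2 (-161 kb), a subunit of DNA polymerase alpha, rose by 0.75 (0.011), which did not pass when control library 3 (0.61) or combination library 2 (0.53) was left out.

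Downstream, LTBP3 (116 kb), which binds latent TGF-beta, rose from 48.9 to 119.3 CPM (log2 change 1.29, adjusted p = 6.9e-05). FAM89B (1.33), EHBP1L1 (0.71), MAP3K11 (0.71), a mixed-lineage kinase, and SIPA1 (0.58) also rose (edgeR adjusted p 0.00024 to 0.0045). SSSCA1-AS1 (1.34) and KCNK7 (1.79) are counted among the 11 too, but averaged only 0.550 and 0.342 CPM in control. They passed the filter on low counts only through treated libraries, where they were higher, so their calls are no support for a rise. ZNRD2 (0.29), PCNX3 (0.28), RELA (0.04), the p65 subunit of NF-kappa-B, and KAT5 (0.12) did not pass (adjusted p 0.061 to 0.71). Neighbours called higher and neighbours not called lay on both sides. With IN10018 NEAT1 was at 1.32 and the neighbours' median at -0.01. Whether the region had a part in the change of NEAT1 was not tested.

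**Figure D5:**
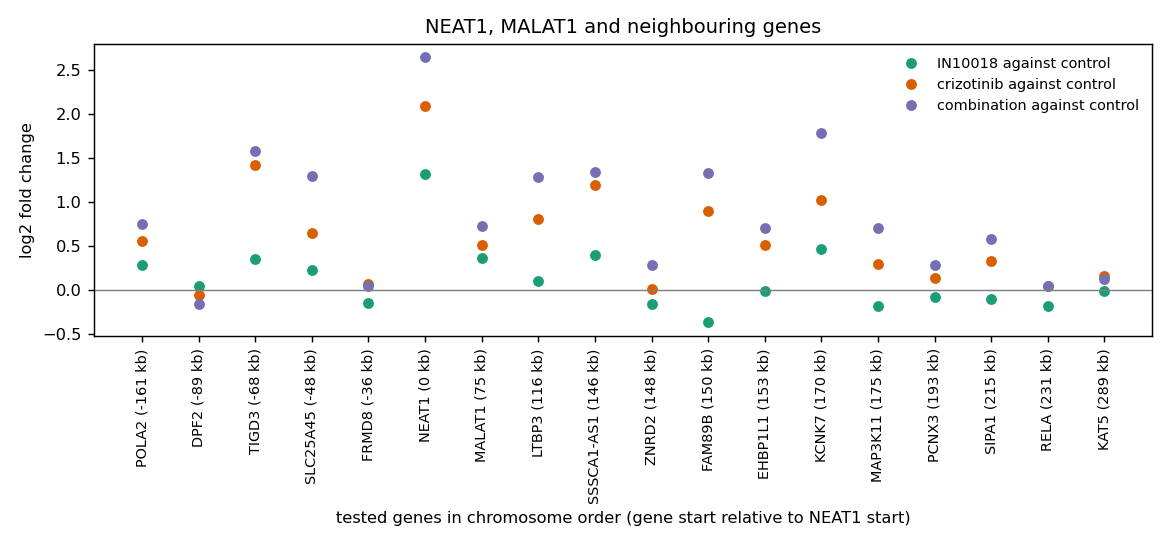
Log2 fold change against control of NEAT1, MALAT1 and tested neighbours in chromosome order, with the distance of each gene's lower coordinate from that of NEAT1 in kb. NEAT1 has the highest point of the plot in each treated group among these genes, and IN10018 points of the neighbours lie between -0.37 (FAM89B) and 0.47 (KCNK7).

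The genes whose pattern was most like that of NEAT1 were taken by Pearson's r of log2 CPM over the 12 libraries, among 12698 genes. The 12 libraries form 4 groups, so r mostly describes the order of the groups, and no p is given. The highest were PAX8-AS1 (r = 0.991), SCUBE3 (0.990), LINC00174 (0.987), CYP4F12 (0.986), IGSF9B (0.986), RPARP-AS1 (0.985), GPR173 (0.985) and LOC339192 (0.985), with Spearman's rho of 0.979 to 0.993. IGSF9B went from 30.3 CPM in control through 52.1 and 81.9 to 113 CPM in the combination, and PAX8-AS1 from 82.1 through 108 and 129.81 to 143 CPM. The most opposite were DIAPH1 (r = -0.986), FCF1 (-0.983), EGR1 (-0.982) and CACUL1 (-0.982). EGR1, an immediate early transcription factor downstream of growth factor signalling, was at 80.3 CPM in control, 32.9 with IN10018, 19.7 with crizotinib and 11.9 in the combination. For MALAT1 the highest were LINC00662 (0.957), KANTR (0.957), AC058791.1 (0.957) and AL590064.1 (0.956), all non-coding RNAs.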

How the data were processed

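Whole-RNA libraries of NUGC-4 cells were prepared with the NEBNext Ultra Directional kit from TRIzol RNA, per the labels' protocols. The deposited table holds raw counts of reads per gene for the 12 libraries, made by the authors with Trimmomatic, FastQC, HISAT2 and featureCounts on GRCh38 (hg38), and DESeq2 is listed too, per the submitters' processing notes. Tool versions, annotation and strand mode are not given in the sources used here, so reads of overlapping and antisense genes may be shared.

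From these counts, TMM scaling, filterByExpr and edgeR 4.0.16 quasi-likelihood tests (robust, R 4.3.3) were run in one fit of all 12 libraries, with Benjamini-Hochberg adjustment over 17096 genes, a threshold of 0.05 and 6 comparisons. CPM uses the scaled library size. RPKM divides it by the exon union of GENCODE 29, which matched 58516 of 60623 gene IDs. Standard errors are approximate. Totals of 13691844 to 20489708 reads leave counting error small for the 7 genes. The edgeR script was also run on simulated counts in which few genes changed, all in the combination. That run does not cover changes as widespread as those here.

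The 7 genes and all lists were chosen with earlier results of these data known. Named were the 7 genes, up to 5 genes per list with the smallest p against control, all tested neighbours, and the genes most like NEAT1 (8 highest, 4 lowest) and MALAT1 (4 highest) at a mean log2 CPM of at least 1. HNRNPK, CPSF6, DAZAP1, HNRNPH3, SMARCA4, HSF1 and JPX were named outside that rule. Alternatives covered scaling, filters, DESeq2 1.42.0, limma-voom (limma 3.58.1), a replicate block and left-out libraries. Within each group, no library was a duplicate of another. Same-numbered libraries of crizotinib and the combination deviated together from their group means (correlations 0.218, 0.624 and 0.275), though crizotinib library 1 matched combination library 3 more closely (0.422). No label says what the numbers share. The replicate block is therefore given beside that comparison. NEAT1 is left out of every count of calls among the 7. Among the listed genes, 2 are counted in their lists but not reported here or drawn.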

Additional observations from a re-analysis of the deposited data

How the results depend on the processing

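The 7 genes were refitted under 23 alternatives (22 for the interaction). NEAT1 kept its direction in all 6 comparisons under each of them, with log2 changes against control of 1.18 to 1.51 for IN10018, 1.92 to 2.28 for crizotinib and 2.48 to 2.83 for the combination. Depth limits none of the 7, since the scarcest, RBM14, had 458 to 693 reads per library.

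Of the 6 genes other than NEAT1, 2 were called in crizotinib against control, and 1 with library totals, 1 without the filter, 1 with only the libraries compared and 1 without the libraries numbered 2 of crizotinib and the combination. For the combination against IN10018 the 3 became 5 without those libraries; the cause was not tested. With single libraries left out the counts ranged from 0 to 3 and from 1 to 5.

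Values that changed sign were all small and not called, and the cause was not tested. With library totals, SFPQ (0.024) and PSPC1 (0.027) turned with IN10018, PSPC1 in the combination against control (0.135) and against IN10018 (0.11), and RBM14 with crizotinib (0.093, and 0.0029 with the stricter filter). PSPC1 with crizotinib turned to -0.015 with DESeq2 size factors, to -0.0039 with scaling that left out mitochondrially encoded genes and to -0.028 with DESeq2. TARDBP in the combination against crizotinib turned to -0.0024 without the filter. With single libraries left out, SFPQ ranged from -0.094 to 0.014 with IN10018 and from -0.11 to 0.0068 in the interaction. PSPC1 ranged from -0.14 to 0.029 with IN10018, -0.066 to 0.095 with crizotinib, -0.15 to 0.0089 in the combination, -0.065 to 0.021 against IN10018 and -0.13 to 0.056 in the interaction. RBM14 ranged from -0.00079 to 0.15 with IN10018 and from -0.14 to 0.10 with crizotinib, and TARDBP from -0.11 to 0.081 in the combination against crizotinib and from -0.042 to 0.17 in the interaction.

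Counts over all genes moved more. Genes higher and lower with IN10018 numbered 59 and 27, and 1 to 1319 and 6 to 840 across the alternatives. With crizotinib they numbered 3421 and 3014, and 1354 to 4820 and 1372 to 3675. In the combination against crizotinib they numbered 0 and 2, and 0 to 2614 and 2 to 3027, and in the interaction 10 and 2, and 1 to 933 and 1 to 984. The libraries carry numbers 1 to 3 in each group. Of 18 correlations between same-numbered libraries' deviations from their group means 8 were over 0.1 (range -0.0279 to 0.624), and the same number gave the best match in 10 of 18. All 3 between crizotinib and the combination were over 0.1, which was so for no other groups. With the replicate block the NEAT1 changes against control were 1.33, 2.11 and 2.65, and the count of the 6 called was the same in each comparison.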
